A study of Homo sapiens with 15 samples.

Results

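MHC class I antigen presentation was followed here through 9 genes, HLA-B, HLA-C, HLA-E, HLA-F, B2M, TAP1, TAP2, TAPBP and NLRC5, in K562 cells treated with martinostat. The genes were chosen by symbol mapped from the Ensembl identifiers of the count table, with earlier results of these data known. They are 9 of the 60649 genes in the table, and all 9 were among the 23711 genes with enough counts to be tested. HLA-F had enough through treated libraries only, since it had 0 counts in untreated cells. K562 is an established line of chronic myeloid leukaemia with erythroid features, and it is known for low surface class I. Martinostat is an inhibitor of histone deacetylases, the enzymes that remove acetyl groups from histones. Of the 5 groups, 1 was left untreated and the other 4 received martinostat at 0.15, 0.25, 0.5 or 1 µM over 24 h, with 3 libraries of poly(A) RNA each, numbered as biological replicates in the labels. All groups are 1 cell line in culture, so the values describe this line and no other leukaemia. No vehicle is named for the untreated cells. The study describes the libraries of a group as independent experiments, without saying what a replicate number shares between groups.

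Class I molecules show peptides from the cell interior to CD8+ T cells and, through HLA-E, to natural killer cells. A polymorphic heavy chain (HLA-B, HLA-C) or a less variable one (HLA-E, HLA-F) pairs with the light chain beta-2 microglobulin, the product of B2M. Peptides cut by the proteasome enter the endoplasmic reticulum through the TAP1-TAP2 transporter, and tapasin, the product of TAPBP, bridges that transporter to the empty heavy chain. NLRC5 is the transactivator of the class I genes and acts with a protein complex on a conserved promoter module that includes an inverted CCAAT box. An interferon-stimulated response element and, in classical heavy chain genes, an NF-κB type site lie upstream of that module.

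Promoter windows of 7 of the 9 genes, in 8 windows since TAP1 has a second annotated start, were read from a RefSeq table on GRCh38.p14, each holding 250 bases before and 50 after the start. HLA-E and NLRC5 had no entry. The sequences are those of the reference genome, and the alleles of K562 cells may differ. The 6 windows below are shown because they place genes that rose (HLA-B, HLA-C, HLA-F, TAP1) beside 1 that was not called (B2M) and 1 that fell (TAPBP). Capitals mark ATTGG (the inverted CCAAT or Y box), GAANNGAAA or GAAANNGAA (2 spellings of the core of an interferon-stimulated response element, ISRE) and GGGNNTTCC (NF-κB type), each on either strand, with overlapping matches merged.
HLA-B: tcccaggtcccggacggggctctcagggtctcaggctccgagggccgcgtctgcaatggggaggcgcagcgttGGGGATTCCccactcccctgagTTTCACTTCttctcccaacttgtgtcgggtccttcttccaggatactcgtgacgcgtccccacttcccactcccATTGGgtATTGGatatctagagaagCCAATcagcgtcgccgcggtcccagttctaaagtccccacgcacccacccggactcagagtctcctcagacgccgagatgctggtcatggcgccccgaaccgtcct
HLA-C: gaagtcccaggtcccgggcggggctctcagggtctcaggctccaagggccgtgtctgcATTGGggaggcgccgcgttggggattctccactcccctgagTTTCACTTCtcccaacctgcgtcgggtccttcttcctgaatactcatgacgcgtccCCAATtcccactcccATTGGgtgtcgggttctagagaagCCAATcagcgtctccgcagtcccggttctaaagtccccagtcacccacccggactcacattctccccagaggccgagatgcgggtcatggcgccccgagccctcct
HLA-F: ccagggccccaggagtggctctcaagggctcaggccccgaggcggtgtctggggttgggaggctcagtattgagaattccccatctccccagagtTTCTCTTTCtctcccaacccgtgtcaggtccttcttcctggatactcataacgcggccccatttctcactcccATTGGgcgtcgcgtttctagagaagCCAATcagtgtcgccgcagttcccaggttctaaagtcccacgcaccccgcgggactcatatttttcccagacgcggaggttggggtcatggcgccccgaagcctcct
B2M: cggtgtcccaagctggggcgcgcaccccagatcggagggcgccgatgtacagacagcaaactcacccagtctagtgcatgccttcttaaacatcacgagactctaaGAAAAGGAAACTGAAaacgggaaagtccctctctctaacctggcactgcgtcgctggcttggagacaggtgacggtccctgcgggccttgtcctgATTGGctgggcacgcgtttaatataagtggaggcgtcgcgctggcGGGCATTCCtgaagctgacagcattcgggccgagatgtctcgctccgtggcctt
TAP1: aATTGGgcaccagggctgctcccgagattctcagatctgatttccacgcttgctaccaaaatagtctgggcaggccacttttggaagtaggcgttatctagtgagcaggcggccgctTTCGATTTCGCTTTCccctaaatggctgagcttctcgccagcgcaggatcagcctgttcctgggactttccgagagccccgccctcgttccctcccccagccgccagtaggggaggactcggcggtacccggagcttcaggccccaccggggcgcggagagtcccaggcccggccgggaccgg
TAPBP: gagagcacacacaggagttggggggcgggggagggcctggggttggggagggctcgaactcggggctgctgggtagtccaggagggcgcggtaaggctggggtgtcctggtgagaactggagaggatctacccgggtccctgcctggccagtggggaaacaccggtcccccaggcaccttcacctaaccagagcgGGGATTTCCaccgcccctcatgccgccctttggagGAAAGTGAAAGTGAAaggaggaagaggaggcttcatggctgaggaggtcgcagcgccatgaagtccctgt
The windows are chr6:31357130-31357429 for HLA-B, chr6:31272043-31272342 for HLA-C, chr6:29723184-29723483 for HLA-F, chr15:44711267-44711566 for B2M, chr6:32853655-32853954 for TAP1 and chr6:33314029-33314328 for TAPBP. B2M and HLA-F are read from the plus strand and the other 4 from the minus strand.

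The heavy chain promoters shared 1 layout. Counted from the start, a Y box on the gene strand began at -81 in HLA-B, -80 in HLA-C and -82 in HLA-F, and another on the opposite strand ended at -52, -52 and -53. An ISRE spelling lay at -155 to -147 in HLA-B and HLA-F and at -151 to -143 in HLA-C. An NF-κB type match, at -177 to -169, was present in HLA-B but in neither of the other two. In the light chain gene 2 overlapping ISRE spellings from -144 also lay upstream of a Y box, at -49 to -45. That was its only Y box, on the gene strand, and its NF-κB type match lay across the start, at -4 to 5.

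At least 1 of the 2 ISRE spellings was present in all 7 genes, the 6 shown and TAP2 (chr6:32838690-32838989, minus strand), against 14.5% of 35116 promoter windows of this length. The members are counted here by gene and the background by window, and the second window of TAP1 held neither spelling and no Y box. The first spelling was present in HLA-B, HLA-C and TAP2 (7.66% of all windows), and the second in HLA-F, B2M, TAP1, TAP2 and TAPBP (8.11%). The second spelling was added to the search after the promoters had been read. A Y box was present in 5 of 7 (34.6% of all windows), absent from these windows of TAP2 and TAPBP. In TAP1 it lay at -249 to -245, at the edge of the window and upstream of the ISRE spellings, which began at -133. TGACG, a partial cyclic AMP response element, was found in HLA-B, HLA-C, B2M and TAP2 (24.6% of all windows), GGGNNTTCC in HLA-B, B2M and TAPBP (6.58%) and the GC box GGGCGG in HLA-C, TAP1, TAP2 and TAPBP (45.0%). Genes that rose and genes that fell both carried ISRE spellings. A match describes the letters and not the binding of a factor, which was not measured.

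**Figure D1:**
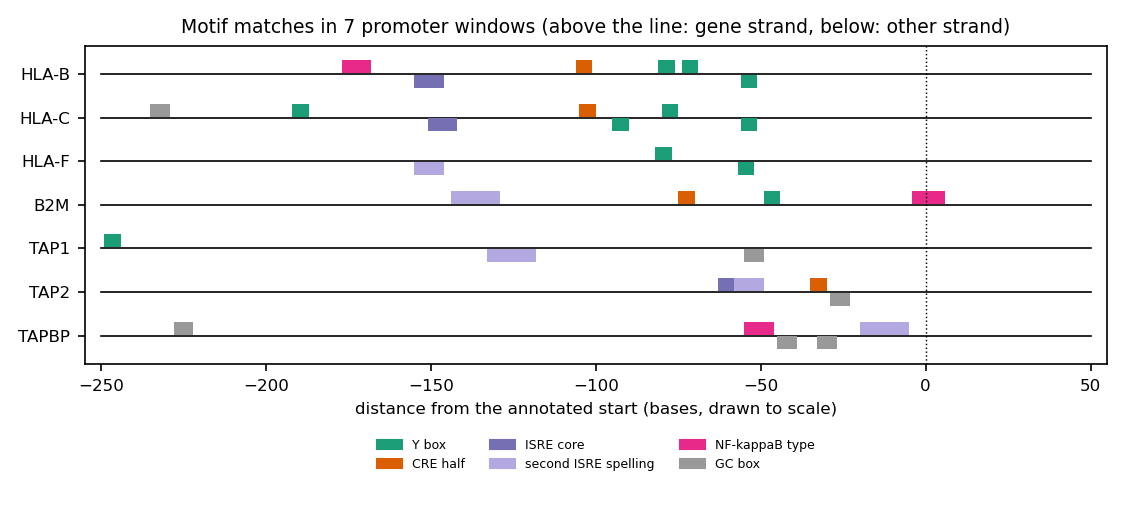
Positions of motif matches in the promoter windows of 7 class I genes, with the distance from the annotated start in bases on the x axis and 1 line per gene. Boxes are coloured by motif and lie above the line for the gene strand and below it for the other strand, and the 3 heavy chain genes carry a Y box on each strand close to the start with an ISRE spelling upstream of both.

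Library totals ran from 23755510 to 32805574 counts. The replicate 3 libraries at 0.25 and 0.5 µM stood apart from the rest. They lay at 70.1 and 75.4 on principal component 3 (4.47% of the variance), with the other 13 libraries at 16.0 or lower, and results that rest on them are given with and without them. Markers of the labelled line were present in all libraries, and the summed level of 7 erythroid and K562 markers was 2606 to 2832 CPM in untreated cells against 751 to 902 CPM at 1 µM. Markers of cell types not expected in the culture differed between groups as well. The summed level of 3 T cell markers was 3.52 to 4.62 CPM in untreated cells (CD2 at 0), 15.6 to 22.6 CPM at 0.15 µM and 1.85 to 4.32 CPM at 1 µM, and that of 3 monocyte markers was 7.22 to 9.28 CPM in untreated cells against 24.6 to 32.6 CPM at 1 µM. The monocyte rise was mostly CSF1R, with 3, 9 and 23 counts in the untreated libraries and 854, 637 and 731 at 1 µM. LYZ went the other way, from 203, 177 and 212 counts to 34, 53 and 64 at 1 µM. CD14 had 12, 1 and 2 counts in untreated cells and 31, 23 and 20 at 1 µM. The 3 B cell markers summed to 2.28 to 4.70 CPM in untreated cells (MS4A1 at 0) and to 8.27 to 8.98 CPM at 1 µM. The 3 fibroblast markers summed to 21.9 to 25.4 CPM in untreated cells against 301 to 486 CPM at 1 µM. That rise was COL1A1 alone, from 5.19, 3.32 and 4.58 CPM to 429, 292 and 473 CPM at 1 µM. COL1A2 fell from 16.6, 19.4 and 20.7 CPM to 8.23, 8.50 and 12.4 CPM, and DCN read at most 0.426 CPM in any library. The 3 endothelial markers summed to 0.0773 to 0.157 CPM in untreated cells (CDH5 at 0) against 3.45 to 5.51 CPM at 1 µM. The part of these changes in the class I values was not tested. In bulk RNA, fewer cells expressing a gene and less RNA per cell cannot be told apart.

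Each concentration was compared with untreated cells, to see which steps of the class I pathway respond to the inhibitor. HLA-B, HLA-C, HLA-E, HLA-F, TAP1 and NLRC5 rose at every concentration, while TAP2 and TAPBP fell at the upper concentrations and B2M was not called at any of the 4. HLA-B rose most among the genes with counts in untreated cells, by 4.25 to 4.58 on the log2 scale. A gene was called where edgeR's quasi-likelihood F-test gave a p, adjusted by Benjamini-Hochberg over the 23711 genes, under 0.05.

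At 0.15 µM, 6 of 9 genes were called higher and 0 lower, where 31.9% of all tested genes were called higher and 19.4% lower. At 0.25 µM the counts were 6 higher and 1 lower, against 37.4% and 24.8% of all tested genes. At 0.5 µM they were 6 and 2, against 39.4% and 27.6%, and at 1 µM again 6 and 2, against 38.8% and 27.5%. The 6 called higher were the same genes at all 4 concentrations. HLA-F is 1 of these 6, and with 0 counts in untreated cells it could not be called lower. The median log2 fold change of the 9 genes was 2.48 at 0.15 µM and 2.59 at 1 µM, beside 0.28 and 0.32 over all tested genes. With plain library totals in place of TMM the median of all genes was 0.64 and 0.67, and the share of called genes that were higher moved from 62.2% to 81.9% at 0.15 µM and from 58.5% to 69.4% at 1 µM. With HLA-F set to its lower bound, given below, the medians were 1.98 and 2.59.

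**Figure D2:**
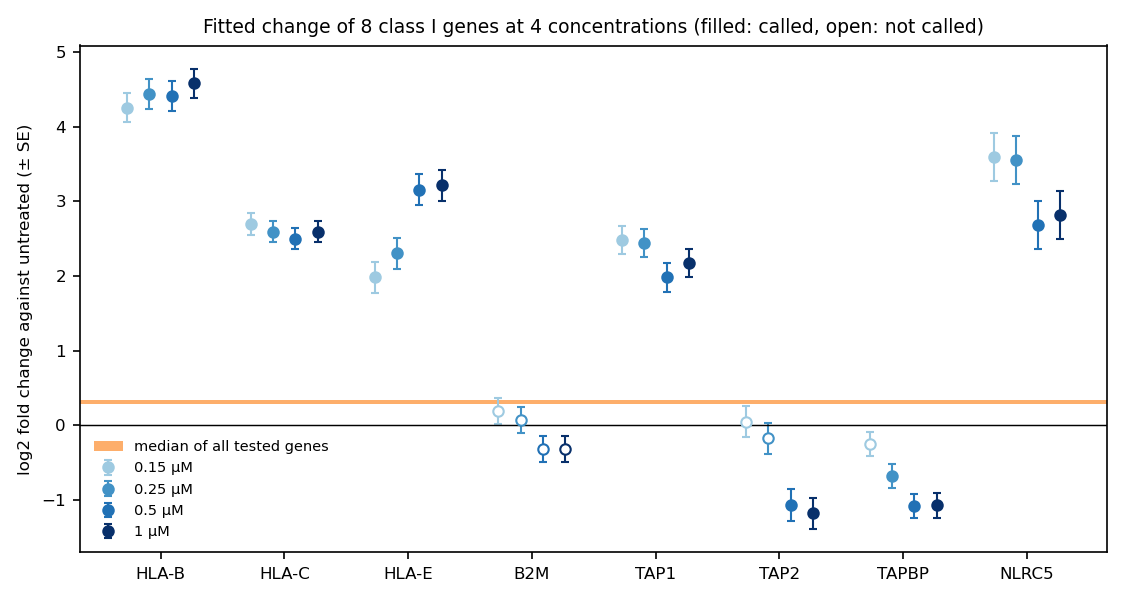
Fitted log2 fold change against untreated cells (y axis) with its standard error for 8 class I genes (x axis) at 4 martinostat concentrations, filled where called and open where not, with an orange band for the median of all tested genes. HLA-B lies above 4 throughout, HLA-C near 2.6 and HLA-E climbs from 1.98 to 3.21, while TAP2 and TAPBP drop below 0. HLA-F is left out because it had 0 counts in untreated cells.

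Among the heavy chains, HLA-B (ENSG00000234745.13, chr6:31353872-31367067, minus strand on hg38), a classical chain that presents peptides to CD8+ T cells, read 2.13, 2.24 and 3.09 CPM in the untreated libraries. CPM values are counts brought to a common library size after TMM scaling, which trims extreme genes. It read 46.3, 43.3 and 53.1 CPM at 0.15 µM, 60.8, 55.4 and 45.8 CPM at 0.25 µM, 60.8, 52.6 and 45.7 CPM at 0.5 µM and 57.2, 68.7 and 53.0 CPM at 1 µM. All 12 treated libraries lay above all 3 untreated ones, with no overlap, and the 4 treated groups overlapped each other. The change was 19.1-fold at 0.15 µM (log2 4.25 ± 0.20 SE, adjusted p = 5.61e-12) and 23.9-fold at 1 µM (log2 4.58 ± 0.20, adjusted p = 6.75e-13, edgeR). Between 0.15 and 1 µM the difference was 0.33 ± 0.16 (log2, adjusted p = 0.112, edgeR), and it was called under 6 of the 28 alternatives, RLE size factors among them (0.44, adjusted p = 0.0353). Of the HLA-B exon bases, 32.7% lie under another gene of the same strand and 14.8% under genes of the opposite strand, so its absolute level is uncertain.

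HLA-C (ENSG00000204525.17, chr6:31268749-31272130, minus strand), a classical chain that is also a ligand of killer cell receptors, read 7.97, 9.08 and 8.57 CPM in untreated cells. It read 54.5, 54.7 and 56.7 CPM at 0.15 µM, 55.8, 55.9 and 43.2 CPM at 0.25 µM, 54.4, 47.2 and 43.3 CPM at 0.5 µM and 52.1, 50.7 and 51.8 CPM at 1 µM. Treated libraries were all above untreated ones, and the lowest treated values were the replicate 3 libraries at 0.25 and 0.5 µM. The change was 6.47-fold at 0.15 µM (log2 2.69 ± 0.14, adjusted p = 3.46e-11) and 6.03-fold at 1 µM (log2 2.59 ± 0.14, adjusted p = 1.73e-11, edgeR). No step between concentrations was called for HLA-C, with differences from -0.10 to 0.09 on the log2 scale. Its exons share no base with another annotated gene. The heavy chain genes are near-identical over long stretches, and reads that fit several of them may have been lost or assigned to a relative.

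HLA-E (ENSG00000204592.9, chr6:30489509-30494194, plus strand), a nonclassical chain that presents signal peptides of other class I chains to the NKG2A receptor of natural killer cells, had another course. It read 27.8, 28.3 and 31.4 CPM without martinostat, 100.5, 109.8 and 135 CPM at 0.15 µM and 167, 149.7 and 115 CPM at 0.25 µM. At 0.5 µM it read 323, 280.4 and 178 CPM, and at 1 µM 256, 309 and 246 CPM. The groups at 0.5 and 1 µM lay above all libraries at the lower concentrations, and the 178 CPM was the replicate 3 library at 0.5 µM. Against untreated cells the rise was 3.94-fold at 0.15 µM (log2 1.98 ± 0.20, adjusted p = 2.05e-07), 4.93-fold at 0.25 µM, 8.92-fold at 0.5 µM and 9.26-fold at 1 µM (log2 3.21 ± 0.21, adjusted p = 1.81e-10, edgeR). The step from 0.25 to 0.5 µM was itself called (log2 0.86 ± 0.20, adjusted p = 0.00241, edgeR), as was 1 against 0.15 µM (log2 1.23 ± 0.20, adjusted p = 4.96e-05, edgeR). Without both replicate 3 libraries the step from 0.25 to 0.5 µM was 0.95 (adjusted p = 5.48e-05), and the step from 0.15 to 0.25 µM, 0.32 with all libraries (adjusted p = 0.317), became 0.48 (adjusted p = 0.0246, edgeR).

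HLA-F (ENSG00000204642.14, chr6:29722775-29738528, plus strand), a nonclassical chain recognised by natural killer cell receptors, had 0 counts in all 3 untreated libraries. It had 1, 9 and 0 counts at 0.15 µM and 16, 11 and 25 at 0.25 µM. The 0.5 µM libraries held 11, 24 and 35 counts and the 1 µM libraries 22, 37 and 25. The libraries at 0.25 µM and above did not overlap with untreated cells, while 1 library at 0.15 µM was also at 0. Set against a floor of 3 counts over the untreated group, HLA-F was at least 2.95-fold higher at 0.15 µM, at least 13.5-fold at 0.25 µM, at least 21.3-fold at 0.5 µM and at least 24.8-fold at 1 µM. The call at 0.15 µM (adjusted p = 0.0246, edgeR) was lost without the second library of that group (adjusted p = 0.293) and without each untreated library in turn (0.0547 to 0.0587). Between 1 and 0.15 µM the log2 difference was 3.02 ± 0.76 (adjusted p = 0.00388, edgeR). Even at 1 µM the level was 0.977 ± 0.265 CPM (SD, n = 3), and 28.0% of its exon bases lie under genes of the opposite strand, HLA-F-AS1 among them.

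**Figure D3:**
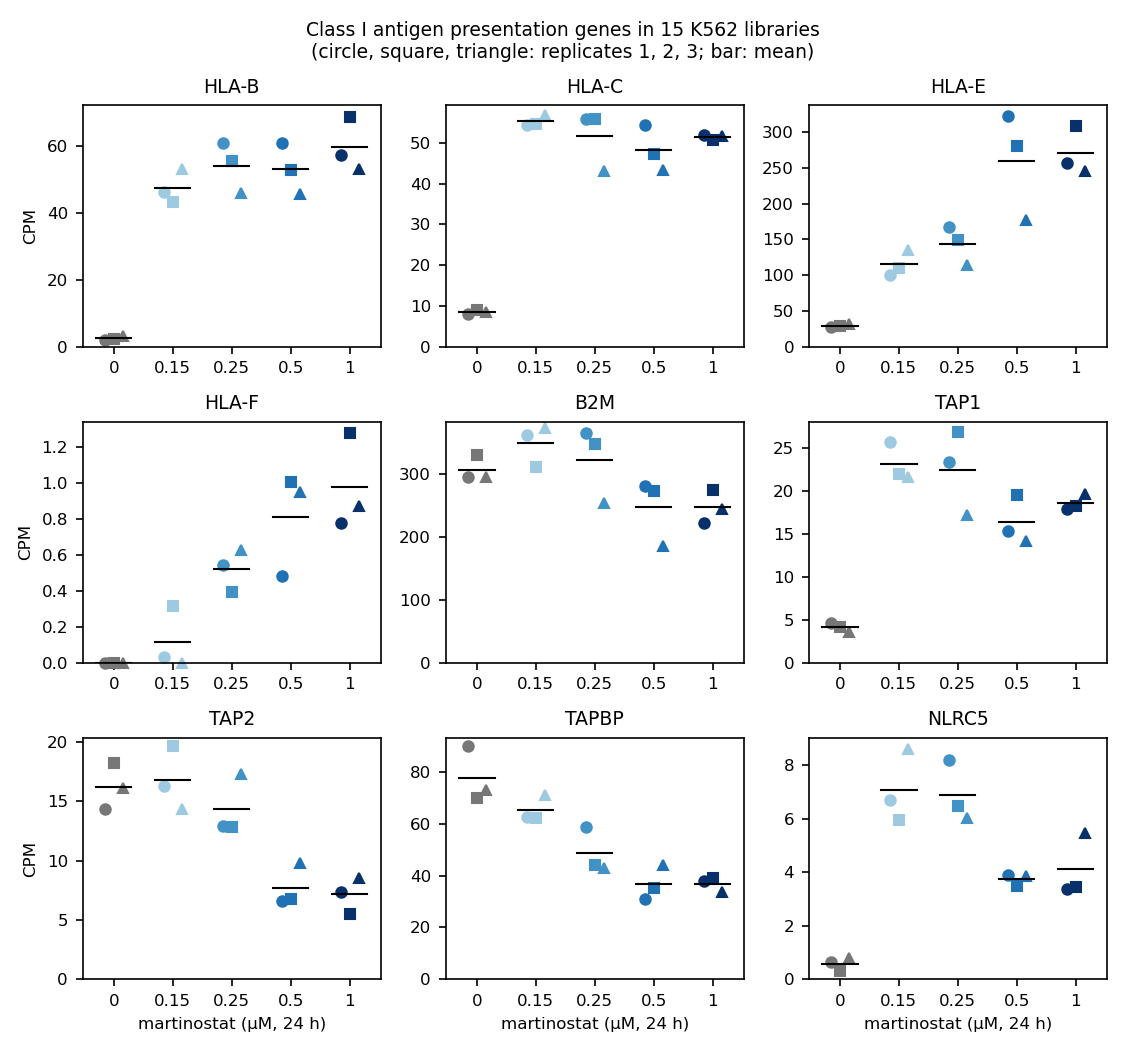
CPM (y axis) of the 9 class I genes in each of the 15 libraries by martinostat concentration (x axis), with circle, square and triangle for replicates 1, 2 and 3 and a bar for the mean. The treated libraries of HLA-B, HLA-C, HLA-E, TAP1 and NLRC5 all lie above the untreated ones, B2M runs between 186 and 373 CPM over all groups, and TAP2 and TAPBP are lower at 0.5 and 1 µM.

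B2M (ENSG00000166710.21, chr15:44711358-44718851, plus strand) encodes the light chain shared by all class I heavy chains. It read 295, 329 and 294 CPM without martinostat, 361, 311 and 373 CPM at 0.15 µM, 364, 347 and 254 CPM at 0.25 µM, 280.5, 273 and 186 CPM at 0.5 µM and 222, 274 and 243 CPM at 1 µM. The groups at 0.15 and 0.25 µM overlapped with untreated cells, and those at 0.5 and 1 µM lay below them without overlap. The log2 differences were 0.19 ± 0.17, 0.07 ± 0.17, -0.31 ± 0.17 and -0.31 ± 0.17 in order of concentration, with adjusted p of 0.393, 0.739, 0.119 and 0.120 (edgeR). With all libraries B2M was the only one of the 9 that was called in none of the 4 comparisons with untreated cells, and this depends on the fit. With plain library totals it was called higher at 0.15 µM (log2 0.54, adjusted p = 0.00139) and at 0.25 µM (0.58, adjusted p = 0.000558), and stood at 0.04 at 0.5 µM, not called. Without both replicate 3 libraries B2M was called lower at 1 µM (-0.27, adjusted p = 0.0422, edgeR). Between treated groups it was lower at 1 than at 0.15 µM (log2 -0.50 ± 0.17, adjusted p = 0.0256, edgeR). This was lost without replicate 1 or replicate 3 of either group (adjusted p = 0.0689 to 0.108) and with RLE size factors, the median-ratio scaling of DESeq2 (adjusted p = 0.0709).

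The 2 subunits of the peptide transporter moved apart. TAP1 (ENSG00000168394.12, chr6:32845209-32853816, minus strand) read 4.62, 4.21 and 3.60 CPM without martinostat, 25.7, 22.1 and 21.6 CPM at 0.15 µM, 23.4, 26.9 and 17.2 CPM at 0.25 µM, 15.4, 19.5 and 14.2 CPM at 0.5 µM and 18.0, 18.3 and 19.7 CPM at 1 µM. All treated libraries lay above all untreated ones, and the highest values were at the 2 lower concentrations. The rise was 5.58-fold at 0.15 µM (log2 2.48 ± 0.19, adjusted p = 5.17e-09) and 4.50-fold at 1 µM (log2 2.17 ± 0.19, adjusted p = 9.26e-09, edgeR). The difference between 0.25 and 0.5 µM, -0.46 ± 0.18, missed the threshold (adjusted p = 0.0582) and passed it without both replicate 3 libraries (-0.52, adjusted p = 0.0236, edgeR). Of its exon bases 14.2% lie under PSMB8-AS1 on the opposite strand.

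TAP2 (ENSG00000204267.16, chr6:32821833-32838739, minus strand), the partner subunit of the transporter, read 14.4, 18.2 and 16.1 CPM without martinostat, 16.3, 19.6 and 14.3 CPM at 0.15 µM, 12.9, 12.8 and 17.3 CPM at 0.25 µM, 6.58, 6.78 and 9.79 CPM at 0.5 µM and 7.38, 5.53 and 8.54 CPM at 1 µM. The lower concentrations overlapped with untreated cells, and the upper ones lay below every library of the other 3 groups. TAP2 fell 2.10-fold at 0.5 µM (log2 -1.07 ± 0.21, adjusted p = 0.000215) and 2.27-fold at 1 µM (log2 -1.18 ± 0.21, adjusted p = 7.67e-05, edgeR), after differences of 0.05 and -0.18 that were not called. With limma on log2(FPKM + 1) and no filter on low values, neither fall was called (-0.26, adjusted p = 0.133, and -0.30, adjusted p = 0.0754). The step from 0.25 to 0.5 µM was called at -0.89 ± 0.21 (adjusted p = 0.00321, edgeR) and was -0.93 without both replicate 3 libraries. Another annotated gene of the same strand covers 19.5% of its exon bases.

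TAPBP (ENSG00000231925.12, chr6:33299694-33314284, minus strand), encoding tapasin, read 90.3, 70.2 and 72.9 CPM without martinostat, 62.5, 62.4 and 71.3 CPM at 0.15 µM, 59.0, 44.1 and 42.9 CPM at 0.25 µM, 30.9, 35.1 and 43.9 CPM at 0.5 µM and 37.8, 39.1 and 33.9 CPM at 1 µM. Only the group at 0.15 µM overlapped with untreated cells. The log2 differences were -0.25 ± 0.16 at 0.15 µM (not called), -0.68 ± 0.16 at 0.25 µM (adjusted p = 0.00125), -1.08 ± 0.16 at 0.5 µM (adjusted p = 9.33e-06) and -1.07 ± 0.16 at 1 µM (adjusted p = 1.03e-05, edgeR), the last a 2.11-fold fall. The call at 0.25 µM was lost with plain library totals (-0.16, adjusted p = 0.485), while those at 0.5 and 1 µM held under all 28 alternatives. Genes of the opposite strand cover 21.0% of its exon bases.

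NLRC5 (ENSG00000140853.16, chr16:56989485-57083531, plus strand), the class I transactivator, was scarce in untreated cells, with 0.654, 0.309 and 0.783 CPM. It read 6.71, 5.93 and 8.60 CPM at 0.15 µM, 8.20, 6.48 and 6.01 CPM at 0.25 µM, 3.89, 3.47 and 3.86 CPM at 0.5 µM and 3.37, 3.45 and 5.47 CPM at 1 µM. All treated libraries lay above the untreated ones, and all libraries at 0.15 and 0.25 µM above all those at 0.5 and 1 µM. The rise was 12.1-fold at 0.15 µM (log2 3.60 ± 0.32, adjusted p = 3.36e-08), 11.8-fold at 0.25 µM, 6.40-fold at 0.5 µM and 7.01-fold at 1 µM (log2 2.81 ± 0.32, adjusted p = 3.15e-07, edgeR). The drop from 0.25 to 0.5 µM was -0.88 ± 0.27 (adjusted p = 0.0182, edgeR). It was lost without the first library at 0.25 µM (-0.74, adjusted p = 0.0806) or the second at 0.5 µM (-0.83, adjusted p = 0.0637), and kept without both replicate 3 libraries (-0.98, adjusted p = 0.0145). Its highest values were at the 2 lower concentrations and those of HLA-E at the 2 upper ones.

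The steps between concentrations were then counted, to see where the response turned. From 0.15 to 0.25 µM, 0 of 9 genes were called by edgeR, 2 at an unadjusted p under 0.05 (HLA-F and TAPBP) and 1 by DESeq2 (HLA-F), where 4.96% of all genes were called higher and 7.32% lower. Leaving out 1 library changed this, since TAPBP was called lower without replicate 1 at 0.25 µM (-0.59, adjusted p = 0.0322) or replicate 3 at 0.5 µM (-0.43, adjusted p = 0.0466), and HLA-F higher without replicate 2 at 0.15 µM (4.59, adjusted p = 0.00841, edgeR). From 0.25 to 0.5 µM HLA-E rose and TAP2 and NLRC5 fell, against 14.4% and 16.0% of all genes. Replicate numbers deviated together in every pair of these groups. Deviations were taken from means of 3 libraries and replicate 3 stood apart in both groups, so this does not show that replicates 1 and 2 are paired. With the 6 libraries fitted alone and the replicate number as a block, B2M (-0.40, adjusted p = 0.00241), TAP1 (-0.46, adjusted p = 0.00796) and TAPBP (-0.41, adjusted p = 0.0332, edgeR) were called lower too. In that fit 10002 of all genes were called, against 4794 in the same libraries without the block and 7211 with all libraries. Without both replicate 3 libraries, TAP1 (-0.52, adjusted p = 0.0236) and TAPBP (-0.63, adjusted p = 0.00431, edgeR) were called lower. Without replicate 3 at 0.25 µM alone, B2M (-0.51, adjusted p = 0.0338) and TAP1 (-0.60, adjusted p = 0.0133, edgeR) were. TAP1 was also called lower without replicate 2 at 0.5 µM (-0.61, adjusted p = 0.0311), and TAPBP without replicate 3 at 0.5 µM (-0.56, adjusted p = 0.0116, edgeR). NLRC5 lost its call in 2 fits with a library left out, given above. From 0.5 to 1 µM, 0 of 9 were called by edgeR or DESeq2 and 0 at an unadjusted p under 0.05. In that comparison 0% of all genes were called higher and 0% lower by edgeR, with 372 genes at an unadjusted p under 0.05, 0 by DESeq2 and 1 by limma on log2 FPKM. From 0.15 to 1 µM HLA-E and HLA-F were higher and B2M, TAP2, TAPBP and NLRC5 lower, against 21.5% and 23.1% of all genes. NLRC5 in this comparison (-0.79 ± 0.27, adjusted p = 0.0228, edgeR) was lost without replicate 3 at 0.15 µM (-0.58) and without replicate 1 (-0.67) or 2 (-0.68) at 1 µM.

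Ratios of genes within a library do not depend on the scaling of libraries and show how the parts of the complex shifted against each other. Levels were divided by the length of the main annotated mRNA, as CPM per kb. With 3 libraries against 3, the exact two-sided permutation test used for them cannot go below p = 0.1 (0.1125 after Benjamini-Hochberg adjustment over 36 tests), so overlap between groups is given instead. B2M exceeded the sum of the 4 heavy chains 17.9, 18.9 and 15.7 times in the untreated libraries and 3.65, 3.08 and 3.18 times at 0.15 µM. The ratio was 2.73, 2.80 and 2.61 at 0.25 µM, 1.47, 1.65 and 1.53 at 0.5 µM and 1.37, 1.45 and 1.56 at 1 µM. No treated group overlapped with untreated cells, and the library-to-library spread was small beside the drop, including the replicate 3 libraries.

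Within the heavy chains the shares moved in both directions. HLA-E made up 61.5 ± 1.17% (SD, n = 3) of the 4 in untreated cells, 40.2 ± 2.51% and 44.9 ± 1.32% at the lower concentrations, and 59.9 ± 4.79% and 59.2 ± 1.32% at the upper ones. HLA-B rose from 8.65 ± 1.28% to 27.6 ± 1.20% at 0.15 µM and stood at 21.6 ± 0.745% at 1 µM, without overlap with untreated cells at any concentration. HLA-C held 29.8 ± 1.97% in untreated cells and 32.2 ± 2.23% at 0.15 µM, groups that overlapped, and 18.8 ± 2.06% at 1 µM. HLA-F stayed under 1% in every library, at most 0.501%. The HLA-E share dipped at the 2 lower concentrations, without overlap with untreated cells, and overlapped with them at 0.5 and 1 µM.

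TAP1 over TAP2, the balance of the 2 transporter subunits, was 0.677, 0.485 and 0.469 in untreated cells and 3.32, 2.36 and 3.17 at 0.15 µM. It reached 5.12, 6.97 and 4.84 at 1 µM, and no treated library overlapped with the untreated ones. The replicate 3 libraries at 0.25 µM (2.09) and 0.5 µM (3.05) were the lowest of their groups. TAPBP over TAP1 fell from 14.7 ± 1.48 to 2.22 ± 0.338 at 0.15 µM and 1.55 ± 0.178 at 1 µM (SD, n = 3).

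**Figure D4:**
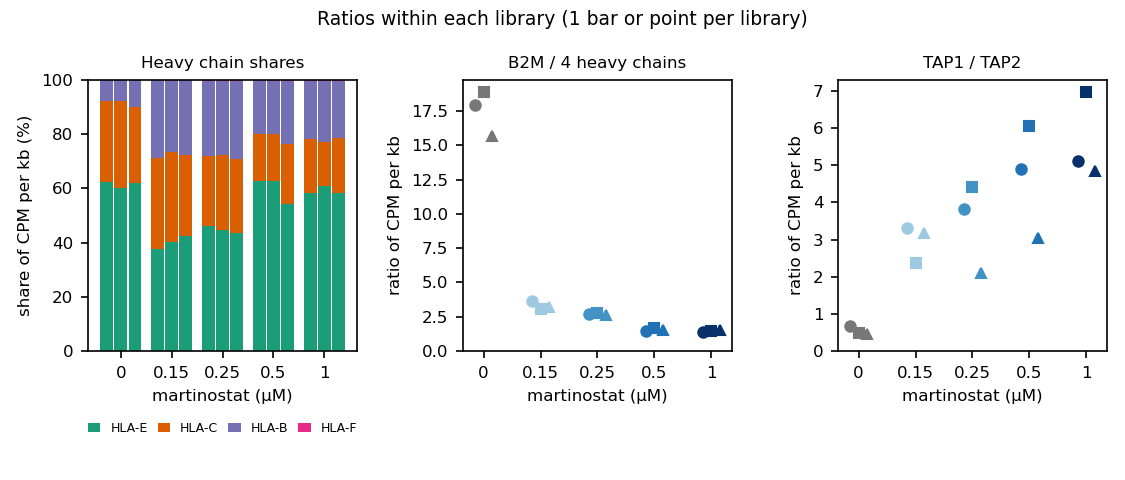
Ratios within each library by martinostat concentration (x axis, µM): the shares of HLA-E, HLA-C, HLA-B and HLA-F in their summed CPM per kb (left, 1 bar per library), B2M over that sum (middle) and TAP1 over TAP2 (right), 1 point per library with circle, square and triangle for replicates 1, 2 and 3. B2M falls from 15.7 to 18.9 times the heavy chains to 1.37 to 1.56 times at 1 µM, and TAP1 passes TAP2 in every treated library.

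Per kb of mRNA, the light chain was the most abundant of the 9 in every group, at 325 CPM per kb in untreated cells and 261 at 1 µM. These were percentiles 98.5 and 98.7 among the 15449 tested genes with an annotated length. Untreated cells ordered the others as TAPBP (22.6 CPM per kb), HLA-E (11.5), HLA-C (5.54), TAP2 (2.88), HLA-B (1.62), TAP1 (1.54), NLRC5 (0.0858) and HLA-F (0). HLA-B and TAP1 were neighbours whose spreads overlapped. At 1 µM the order was HLA-E (106 CPM per kb), HLA-B (38.8), HLA-C (33.4), TAPBP (10.7), TAP1 (6.95), TAP2 (1.27), HLA-F (0.660) and NLRC5 (0.605), with the last 2 overlapping. HLA-B moved from percentile 37.1 to 88.7, HLA-C from 50.7 to 86.8 and HLA-E from 62.4 to 96.3. NLRC5 stood at percentile 18.4 in untreated cells, 26.1 at 0.15 µM and 19.1 at 1 µM.

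The remaining machinery of the pathway moved in both directions. Of 8 genes of peptide loading and trimming, 0.15 µM raised 1 and lowered 3 (31.9% and 19.4% of all tested genes), and 1 µM raised 3 and lowered 5 (38.8% and 27.5%). Their median log2 fold change was 0.02 at 0.15 µM and -1.04 at 1 µM, beside 0.28 and 0.32 over all genes. With plain library totals the median was 0.37 at 0.15 µM, where 2 were higher and 2 lower, and -0.69 at 1 µM. ERAP1, the aminopeptidase that trims peptides in the endoplasmic reticulum, fell 6.29-fold at 1 µM (log2 -2.65 ± 0.23, adjusted p = 9.04e-09, edgeR). PDIA3 (ERp57), the disulfide partner of tapasin, fell 2.43-fold (log2 -1.28 ± 0.16, adjusted p = 7.16e-07, edgeR). TAPBPL, the tapasin-related peptide editor, rose 3.71-fold at 1 µM (log2 1.89 ± 0.37, adjusted p = 0.000206) after 0.18 at 0.15 µM, not called. CALR, the chaperone calreticulin, rose 1.76-fold (log2 0.82 ± 0.23, adjusted p = 0.00437, edgeR).

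The immunoproteasome, the interferon-inducible form of the proteasome that makes class I peptides, also moved in both directions. Of 5 tested genes 2 were higher and 2 lower at each concentration. Over all tested genes 31.9% and 19.4% were called at 0.15 µM and 38.8% and 27.5% at 1 µM, and 5 genes are too few to be told apart from these shares. With plain library totals 3 were higher and 1 lower at 0.15, 0.25 and 0.5 µM, and 2 and 1 at 1 µM. PSMB9, a catalytic subunit whose gene starts beside that of TAP1, had untreated values of 0.777, 0.386 and 0.704 CPM. At 0.15 µM it read 20.9, 23.1 and 28.1 CPM and at 1 µM 13.3, 17.8 and 12.6 CPM. It rose 38.5-fold at 0.15 µM (log2 5.27 ± 0.32, adjusted p = 1.98e-10) and 23.3-fold at 1 µM (log2 4.54 ± 0.32, adjusted p = 3.9e-10, edgeR), without overlap. PSMB8, the neighbouring catalytic subunit, rose 3.53-fold at 0.15 µM (log2 1.82 ± 0.33, adjusted p = 0.000153) and stood at 0.28 ± 0.34 at 1 µM (adjusted p = 0.474, edgeR).

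PSMB10, the remaining catalytic subunit, fell 2.92-fold at 0.15 µM and 6.85-fold at 1 µM (log2 -2.78 ± 0.29, adjusted p = 8.89e-08, edgeR). Of the proteasome activator, PSME1 was called higher at 0.5 and 1 µM (log2 0.49 ± 0.19 at 1 µM, adjusted p = 0.0345). PSME2 was called lower at all 4 concentrations (-0.63 ± 0.16 at 1 µM, adjusted p = 0.00177, edgeR). With plain library totals none of the PSME2 calls held. PSMB9 per kb over PSMB8 per kb went from 0.359 ± 0.117 in untreated cells to 3.92 ± 0.582 at 0.15 µM and 7.38 ± 1.94 at 1 µM (SD, n = 3).

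Among 16 factors of the class I promoter, 0.15 µM raised 2 and lowered 6 (31.9% and 19.4% of all tested genes), and 1 µM raised 4 and lowered 7 (38.8% and 27.5%), with medians of -0.26 and -0.07 (log2). Plain library totals gave 4 higher and 2 lower at 0.15 µM and 7 and 7 at 1 µM. STAT2, a transcription factor of type I interferon signalling, was 1.93-fold higher at 0.15 µM and 3.79-fold at 1 µM (log2 1.92 ± 0.18, adjusted p = 1.45e-08). NFKB1, the p50 subunit gene of NF-κB, fell 2.12-fold at 0.15 µM and 7.67-fold at 1 µM (log2 -2.94 ± 0.18, adjusted p = 6.66e-11), and ATF1 fell 3.05-fold at 1 µM (log2 -1.61 ± 0.15, adjusted p = 2.68e-08, edgeR). CIITA, the class II relative of NLRC5, chosen after its values were seen, rose 1.91-fold at 0.15 µM (adjusted p = 0.0189) and 1.94-fold at 1 µM (adjusted p = 0.0121, edgeR).

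Of 7 interferon receptor and kinase genes, 1 was higher and 3 lower at 0.15 µM (31.9% and 19.4% of all tested genes) and again at 1 µM (38.8% and 27.5%), with medians of -0.33 and -0.61 (log2). IFNGR2, a chain of the interferon gamma receptor, fell 5.32-fold at 1 µM (log2 -2.41 ± 0.18, adjusted p = 1.01e-09), and its kinase gene JAK2 fell 5.33-fold (log2 -2.41 ± 0.18, adjusted p = 8.67e-10, edgeR). TYK2 rose 1.66-fold at 1 µM (log2 0.73 ± 0.14, adjusted p = 0.000141), and JAK1 stood at 0.13 ± 0.18 (adjusted p = 0.539, edgeR). With plain library totals 3 were higher and 3 lower at 1 µM.

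A further 10 genes were listed as possible repressors or degraders of class I, and that role was not tested for any of them. Of these, 0.15 µM raised 1 and lowered 2 (31.9% and 19.4% of all tested genes), and 1 µM raised 2 and lowered 4 (38.8% and 27.5%). At 1 µM, plain library totals gave 6 higher and 3 lower. MARCHF9, a ubiquitin ligase of class I, rose 2.13-fold at 1 µM (log2 1.09 ± 0.15, adjusted p = 3.69e-06). EED, a subunit of the Polycomb complex PRC2, fell 2.27-fold (log2 -1.18 ± 0.14, adjusted p = 4.18e-07), SUSD6 fell 2.25-fold (log2 -1.17 ± 0.19, adjusted p = 1.96e-05) and IRF2BP1 stood at 0.56 ± 0.33 (adjusted p = 0.145, edgeR). EZH2, the PRC2 methyltransferase, chosen after its values were seen, was 1.80-fold lower at 0.15 µM and 1.96-fold lower at 1 µM (log2 -0.97 ± 0.16, adjusted p = 3.51e-05, edgeR).

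Other class I and class I-like heavy chains were mostly higher at the lower concentrations. Of 12 listed genes 7 had enough counts to be tested, and 6 were higher and 0 lower at 0.15 µM (31.9% and 19.4% of all tested genes), beside 4 higher and 2 lower at 1 µM (38.8% and 27.5%). FCGRT, the neonatal Fc receptor, which also pairs with beta-2 microglobulin, rose 3.25-fold at 0.15 µM and 3.14-fold at 1 µM (log2 1.65 ± 0.43, adjusted p = 0.00324, edgeR). MR1, which presents vitamin metabolites to innate-like T cells, was higher at 0.15 µM (log2 0.57 ± 0.16, adjusted p = 0.00636) and lower at 1 µM (-0.50 ± 0.16, adjusted p = 0.0122, edgeR), and the fall was lost with plain library totals. PROCR, the endothelial protein C receptor, was also higher at 0.15 µM (1.07 ± 0.18) and lower at 1 µM (-0.86 ± 0.18, adjusted p = 0.00039, edgeR). HLA-G was not tested, with 0 to 10 counts per library.

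**Figure D5:**
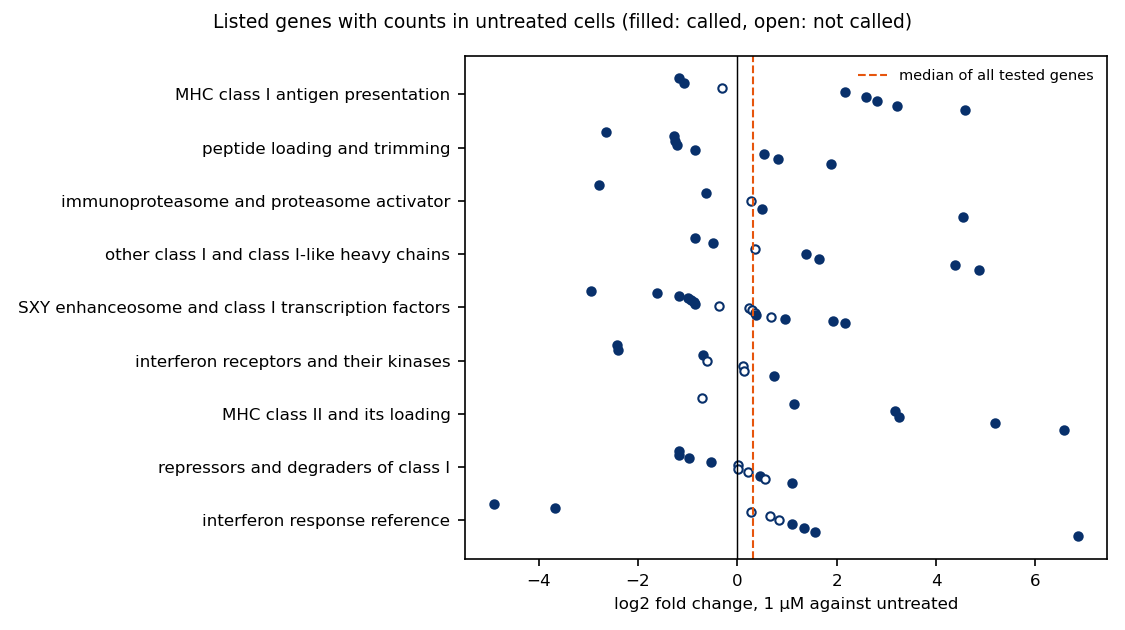
Log2 fold change of 1 µM against untreated cells (x axis) for the tested genes of 9 lists (y axis), 1 point per gene, filled where called, with a dashed line at the median of all tested genes (0.32). Genes with 0 counts in untreated cells are left out, and the 8 class I genes shown run from -1.18 (TAP2) to 4.58 (HLA-B).

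The genes of most like course were sought among 10121 tested genes averaging 10 CPM or more, by the root mean square difference of the 4 log2 fold changes. The nearest to HLA-B were DLGAP3 (0.129), GSN (0.134) and INPP5J (0.156), and to HLA-C they were SOX13 (0.117), NFASC (0.117) and SPEG (0.118). Nearest to HLA-E were TRIM62 (0.104), TMEM8B (0.123) and ARMC9 (0.141), to HLA-F SMPD4P1 (0.358) and CELF3 (0.394), and to B2M MITF (0.0197), PCTP (0.0626) and ARF5 (0.0661). TAP1 was followed most closely by MAGEA8 (0.0432), TMEM54 (0.0559) and KCNAB2 (0.105), and TAP2 by DDX17 (0.0424), PEX2 (0.0665) and CCDC69 (0.0772). For TAPBP these were ATP5F1E (0.0325), EFHD2 (0.0444) and ARHGEF39 (0.0535), and for NLRC5 CCNJL (0.160) and SNPH (0.17). None of the 27 nearest genes belongs to the 82 other listed genes. The 4 differences share their untreated libraries, so this likeness is a description.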

How the data were processed

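Poly(A) RNA of 15 libraries was sequenced after directional library preparation. The authors trimmed reads (Trim Galore 0.6.10, Trimmomatic, per the methods and processing notes), aligned them to hg38 with HISAT2 2.2.1, sorted them with SAMtools 1.21 and counted them on GENCODE genes with featureCounts 1.5.3. The strand setting is not given in the sources used here. The deposited counts are whole, not normalized, and served the main test. The deposited FPKM values were made by the authors from the same counts and use the genomic span as length in 94.4% of genes, so they served alternatives only. The table held 60649 genes, 99.7% with a symbol.

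Genes were filtered with filterByExpr (23711 kept), scaled by TMM and fitted by group over all 15 libraries with edgeR 4.0.16 (R 4.3.3), robust quasi-likelihood F-tests, for 8 comparisons, with a threshold of 0.05 on the Benjamini-Hochberg adjusted p. The biological coefficient of variation was 0.228. The fit was tested on simulated data first. Libraries of a group differed by more than counting noise in every pair (chi-square over its degrees of freedom 6.49 or higher). Totals limit the precision of low genes such as HLA-F and NLRC5, and a count of 0 was bounded by 3 counts over the group, which covers counting error only. Levels per kb used MANE Select mRNA lengths, and positions and overlaps come from GENCODE 44 on hg38, whose gene versions can differ from those printed.

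The 9 genes, the other lists and the motifs were chosen with earlier results of these data known. All 9 genes are named. Of other lists every tested gene was counted. Named were all genes of lists with 5 or fewer tested, otherwise the 2 highest and 2 lowest at 1 µM with a mean of at least 1 CPM, and for each member the 3 most like genes of at least 10 CPM. Exceptions are said to be chosen after their values were seen. The values of 4 genes that these rules would name are left out here.

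There were 28 alternatives: DESeq2 1.42.0, limma 3.58.1 on log2(FPKM + 1), with and without the filter, or log2(FPKM + 0.1), other scalings and filters, a non-robust fit, a replicate block, only the compared libraries, each library left out, and, added after seeing the data, both replicate 3 libraries at 0.25 and 0.5 µM left out. The replicate numbers were checked for pairing. Deviations correlated above 0.1 in every pair only between 0.25 and 0.5 µM (lowest r = 0.266). For that step a fit of those 6 libraries with the replicate number as a block was added after seeing the data. The main test has no block.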

Additional observations from a re-analysis of the deposited data

How the results depend on the processing

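Over the 9 genes and 8 comparisons, 2009 alternative values were computed, of which 1932 kept their side of the threshold, 49 passed it newly, 28 no longer passed it and 0 called values changed sign. Of the 1932, 105 were called in neither fit and had the opposite sign. HLA-B, HLA-C, HLA-E, TAP1 and NLRC5 stayed called higher against untreated cells at all 4 concentrations wherever they were tested. HLA-F and NLRC5 could not be tested with at least 10 counts in every library. Where a call moved, the cause was not tested.

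The number called from 0.15 to 0.25 µM, 0 with edgeR, was 1 with library totals (HLA-E), DESeq2 (HLA-F), limma on log2(FPKM + 1) and on log2(FPKM + 0.1), and without both replicate 3 libraries, and 0 to 1 with a library left out. From 0.25 to 0.5 µM, 3 became 5 with library totals, TMM from genes of at least 10 CPM or without both replicate 3 libraries, 6 with the 3 limma fits or with the 6 compared libraries alone and a replicate block, and 2 to 5 with a library left out. HLA-F at 0.15 µM was lost in 8 of 27 alternatives. TAP2 at 0.5 µM was lost on log2(FPKM + 1) (-0.26, adjusted p = 0.0768), and without the filter also at 1 µM (-0.30, adjusted p = 0.0754). TAPBP at 0.25 µM was lost with TMM from genes of at least 10 CPM (-0.26, adjusted p = 0.203) and B2M was then higher at 0.15 µM (0.45). B2M at 1 µM was called lower when only the compared libraries were fitted (adjusted p = 0.00937). HLA-C was called lower from 0.25 to 0.5 µM in the 3 limma fits, and TAP1 in 10 alternatives. With all 15 libraries the replicate block changed no call of the 9 genes. It moved the count of all called genes at 1 µM from 15707 to 15808. Depth limits HLA-F, with at most 37 counts in a library.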

Other observations

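Genes of MHC class II, which presents peptides to CD4+ T cells, moved beside those of class I. Of 12 listed genes 10 were tested, and 8 were higher and 0 lower at 0.15 µM (31.9% and 19.4% of all tested genes), beside 9 higher and 0 lower at 1 µM (38.8% and 27.5%). For 4 of the 10, with 0 counts in untreated cells, only treated libraries gave enough counts for testing. Those 4 could not be called lower, so the counts of higher and lower genes are in part set by the filter. HLA-DOA, a chain of the HLA-DO modulator of class II loading, had 0 counts in all untreated libraries and 326, 961, 870 and 932 counts per group from 0.15 to 1 µM, at least 96.1-fold to at least 275-fold higher. HLA-DMB, a chain of the loading factor HLA-DM, also had 0 counts in untreated cells and was at least 7.37-fold higher at 0.15 µM and at least 60.4-fold higher at 1 µM. HLA-DPB1, a class II beta chain, was higher by 3.46 at 0.15 µM and 3.18 at 1 µM on the log2 scale (adjusted p = 1.47e-07, edgeR, Benjamini-Hochberg adjusted). CD74, the invariant chain, rose by 1.14 at 1 µM (adjusted p = 0.00577, edgeR). The median over the tested genes was 4.71 at 0.15 µM and 5.88 at 1 µM, and with 4 genes without untreated counts at their bounds it was 2.76 and 4.24.

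Of 12 listed interferon response genes 11 were tested, and 7 were higher and 1 lower at 0.15 µM (31.9% and 19.4% of all tested genes), beside 6 higher and 2 lower at 1 µM (38.8% and 27.5%). Among the 11, 2 had 0 counts in untreated cells, were tested through treated libraries only and could not be called lower. With plain library totals the counts were 9 and 0 at 0.15 µM and 7 and 2 at 1 µM. IFI6, an interferon-induced mitochondrial protein, rose by 4.90 at 0.15 µM and 6.85 at 1 µM on the log2 scale (adjusted p = 1.92e-09, edgeR). GBP2, a guanylate-binding protein, rose by 2.66 at 0.15 µM and 1.57 at 1 µM (adjusted p = 4.82e-06, edgeR). IFIT3 stood at -3.67 at 1 µM (adjusted p = 1.43e-06, edgeR). IFIT1 was higher by 1.00 at 0.15 µM and stood at 0.27 at 1 µM, not called.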
